A study of Dugesia japonica with 157 samples.

Results

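The interior genes are 200 rows of the count tables of the planarian flatworm Dugesia japonica. They were highest on average in the inner sections between back and belly and had no zone of their own between head and tail. They were chosen by their measured values in the dorsal-ventral and anterior-posterior sections, so those values are given as a description and carry no test. Levels were taken as log2(CPM + 1), where CPM is a gene's count scaled by the section's total in the usual way, and the lead of a zone was its mean level minus the mean of the other used sections. A gene qualified when its largest lead over the anterior-posterior zones 1 to 7, 8 to 26, 27 to 52, 53 to 65 and 66 to 78 was under 1. In addition, its largest dorsal-ventral lead had to lie in sections 10 to 18, over zones 4 to 9 and 19 to 26, and reach at least 1. Of 25566 rows, 13592 passed the filter of 5 or more counts in 10% of the used sections along both axes, 8074 of these had no anterior-posterior zone, and 994 were interior, of which the 200 with the largest interior lead were kept. The number of interior genes before that last step depended on the scaling and the filter, being 1813 with TMM library sizes (a scaling by edgeR), 492 with a pseudocount of 5 and 469 when 5 counts were asked in 50% of sections. At the edge of the list, DjGI010253_001 and DjGI010786_001 had interior leads of 1.89 and 1.88, and the first rows outside it, DjGI007334_001 and DjGI011865_001, had 1.87 and 1.87.

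Polyadenylated RNA was sequenced from serial sections of whole animals of strain AF, with no treatment in the labels, along 3 body axes with 78, 28 and 51 sections. The labels name no replicate animals and do not say whether the axes share an animal. Sections therefore stand in for replicates, and p-values measure the spread between sections of 1 series, not between animals. A section was used when its total reached 20% of the median total of its series, which kept 74 anterior-posterior, 21 dorsal-ventral and 37 right-left sections.

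A planarian is a solid worm without a body cavity. Its epidermis and body wall muscle enclose a parenchyma that holds the stem cells called neoblasts, a branched gut that runs through most of the body, and excretory and secretory cells, while the brain lies in the head and the nerve cords run ventrally. Neoblasts of planarians are known to be missing from the tip of the head in front of the eyes and from the pharynx. Identifiers come without names in the tables, so no marker of gut, neoblasts, muscle, nerve or epidermis could be looked up, and no tissue or role is given to any identifier. The name interior was checked only by place.

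Depth differed between sections and moved with the interior zone. The used anterior-posterior sections held 175749 to 12945391 estimated counts each, the dorsal-ventral ones 623214 to 26807303 and the right-left ones 236421 to 13052596. The median total was 14600694 in the used interior sections, 4323922 in the dorsal and 1874285 in the ventral sections. In the right-left series it was 646465 on the right, 2731445 in the middle and 1390179 on the left. The part of depth in the levels below was not tested beyond the thinned counts and the depth term given beside them. Libraries were numbered in the order of the sections, so library order and position cannot be told apart.

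Together the interior genes made up a few percent of all counts at the core of the animal and far less toward back and belly. In the 8 used interior sections, 10 to 17, their summed share of counts was 4.95%, 5.67%, 6.76%, 7.20%, 7.37%, 6.64%, 5.57% and 4.46%. In the used dorsal sections 4, 5, 7, 8 and 9 it was 1.93%, 0.913%, 1.54%, 1.86% and 2.82%. In ventral sections 19 to 26 it had a lowest value of 0.428%, a median of 0.860% and a highest value of 2.18%. Within the interior the share rose to section 14 and then fell. Every used interior section was above every used dorsal and ventral section, which the choice of the genes sets in part. The dorsal and ventral shares overlapped with each other. In a section, a smaller share from fewer cells of a type and from less RNA per cell cannot be told apart. Section 18 lies in the interior by number but was left out for its low total, and its share was 1.02% (95% Wilson interval 0.983% to 1.06%, counting error only), below that of the used ventral section 19. A highest level at section 13 was recorded for 57 of the genes and at section 14 for 52. Some members had their highest single section outside the interior, among them 9 at section 26, 4 at section 4 and 3 at section 19.

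**Figure D1:**
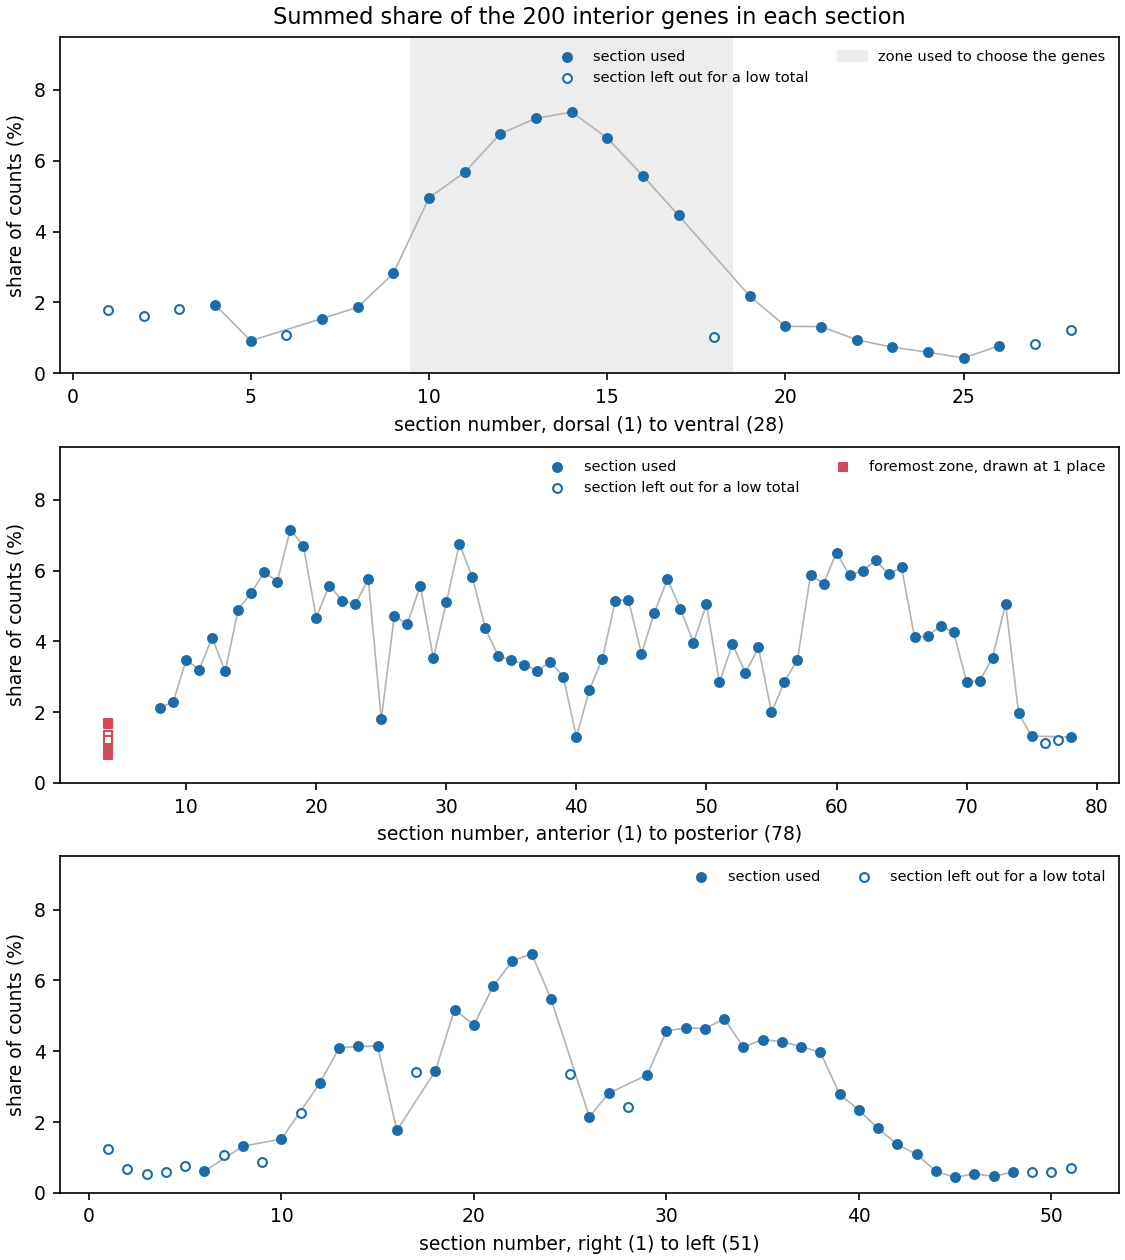
Summed share of counts (%) of the 200 interior genes in each section along the dorsal-ventral, anterior-posterior and right-left axes, with filled points for used sections, open points for sections left out for a low total, and squares for the foremost 7 sections, whose order was not used. The share peaks at 7.37% in dorsal-ventral section 14, is low at both ends of the anterior-posterior axis, and falls to 0.434% on the left of the right-left axis.

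The members' interior leads had a median of 2.26 on the log2(CPM + 1) scale, with quartiles of 2.05 and 2.63. Every used interior section was above every used dorsal and ventral section in 71 of the 200, against 0.99% of the 18291 genes that passed the filter along this axis, a count that the choice of the genes sets in part. The others overlapped in at least 1 section. Levels ran over a wide range, since the median of the members' mean CPM in the dorsal-ventral series was 12.4 and the highest was 4108.

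The gene with the largest interior lead, DjGI003135_001, had 30.1, 44.2 and 62.5 CPM as its lowest, median and highest interior values. In dorsal sections 4, 5, 7, 8 and 9 DjGI003135_001 had 1.60, 0.410, 23.2, 2.54 and 15.3 CPM, and in the 8 ventral sections it had a median of 0 and a highest value of 8.70 CPM, with counts in 3 sections. All interior sections were above all others, and the lead was 4.07. DjGI015745_001 ran from 51.7 to 129 CPM in the interior with a median of 93.1, and had 1.60, 3.28, 17.5, 37.9 and 57.6 CPM in the dorsal sections and at most 16.1 CPM ventrally. Its dorsal values climbed toward the interior, and section 9 overlapped with the lowest interior section.

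DjGI014348_001 was a further low-abundance gene, with 4.26, 23.5 and 41.6 CPM as lowest, median and highest interior values, dorsal values of 0, 6.56, 0, 3.70 and 8.96 CPM, and no more than 4.13 CPM ventrally. DjGI008499_001 had 10.3 to 28.2 CPM in the interior, dorsal values of 0, 0, 3.34, 3.93 and 4.90 CPM, and at most 6.02 CPM ventrally. Only the first of these overlapped between zones. DjGI019365_001 ran from 60.2 to 196 CPM in the interior, against 44.9, 16.8, 10.6, 27.8 and 40.6 CPM dorsally and a ventral median of 9.22 CPM with a highest value of 58.6 CPM. DjGI014985_001 ran from 175 to 441 CPM in the interior, against 62.6, 20.9, 53.1, 34.5 and 86.9 CPM dorsally and a ventral median of 18.9 CPM with a highest value of 107 CPM. Neither gene overlapped between the interior and the other zones.

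The members most abundant along the right-left axis reached far higher levels. DjGI007542_001, the member with the highest mean level in the right-left series, had 4466, 7564 and 10302 CPM as lowest, median and highest interior values, 2548, 1540, 2117, 2346 and 3348 CPM dorsally, and 826 to 3572 CPM ventrally. DjGI019207_001 had 2779 to 6147 CPM in the interior, 1120, 627, 1149, 1517 and 1932 CPM dorsally and 256 to 2199 CPM ventrally. In both, the ventral maximum was section 19, next to the interior. DjGI000584_001 had 1449 to 6482 CPM in the interior and 272 to 639 CPM ventrally, but its dorsal values of 1568, 599, 601, 966 and 1920 CPM overlapped with the lowest interior section. DjGI015972_001 had 2342 to 7174 CPM in the interior, highest at section 10, with 600, 363, 1701, 1502 and 2310 CPM dorsally and 94.9 to 1826 CPM ventrally.

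Most members were higher on the dorsal than on the ventral side. Both flanks enter the interior lead, with 5 dorsal and 8 ventral sections, so the choice of the genes sets this difference in part, and it is given as a description. The mean level of dorsal sections 4 to 9 was above that of ventral sections 19 to 26 in 177 of the 200 and below it in 23. The median difference was 0.87 on the log2(CPM + 1) scale, against 0.09 over the 18291 genes that passed the filter, of which 55.0% were higher dorsally. A difference over 1 was found in 83 members, and none was below -1. Dorsal sections were deeper than ventral ones, as given above, and the part of depth in this difference was not tested.

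**Figure D2:**
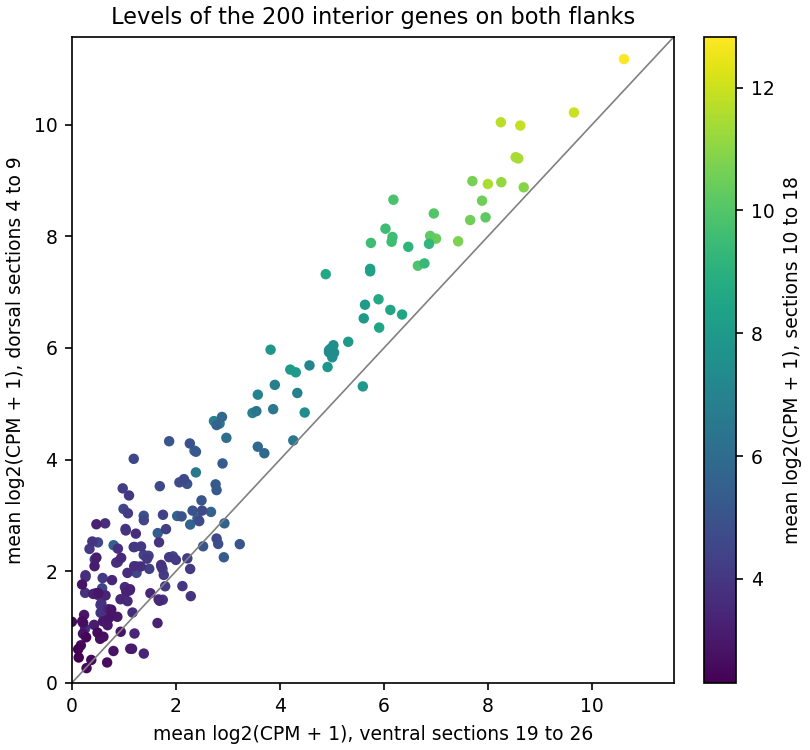
Mean log2(CPM + 1) of each of the 200 interior genes in dorsal sections 4 to 9 (vertical axis) against ventral sections 19 to 26 (horizontal axis), coloured by the mean in sections 10 to 18. Of the points, 177 lie above the line of equal levels and 23 below it, most of the latter at low levels.

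The largest dorsal excess, 2.82, was that of DjGI002588_001, with 30.5, 6.15, 16.1, 16.0 and 15.7 CPM in the dorsal sections, 18.2 to 25.2 CPM in the interior, and a ventral median of 0 CPM with counts in 3 of 8 sections. DjGI007533_001 followed with a difference of 2.51, but its dorsal values of 99.5, 4.10, 9.24, 2.31 and 9.05 CPM include a high value in section 4, the shallowest used and the only one above its interior range of 7.30 to 24.4 CPM. In DjGI010076_001 the difference was 2.47, and its dorsal values of 375, 106, 448, 667 and 870 CPM approached and, in section 9, entered the interior range of 689 to 1576 CPM, while the ventral median was 74.8 CPM.

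The reverse order was small in size. DjGI010804_001 had a dorsal minus ventral difference of -0.86, with 0, 0, 0, 0.463 and 3.21 CPM dorsally, a ventral median of 0.347 CPM and a highest ventral value of 18.5 CPM in section 26. DjGI011169_001 had -0.74, from 0, 12.7, 3.14, 14.8 and 5.09 CPM dorsally and a ventral median of 11.4 CPM. DjGI002653_001 had -0.73, from 0, 2.05, 0.197, 9.25 and 4.81 CPM dorsally and a ventral median of 5.71 CPM. Each of these genes had 0 counts in section 4.

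Along the anterior-posterior axis the interior genes had no zone above the rest by the rule. They were still not evenly spread, being low at the foremost end and in the rearmost used sections. The share of counts in the 5 used foremost sections, given in no order, was 0.790%, 0.967%, 1.31%, 1.71% and 1.66%. It had a median of 4.90% in sections 8 to 26 (1.80% to 7.15%), 3.95% in sections 27 to 52 (1.30% to 6.75%), 5.86% in sections 53 to 65 (2.00% to 6.51%) and 3.54% in sections 66 to 78 (1.30% to 5.07%). All foremost sections lay below every section from 8 to 39. The 3 rearmost used sections, 74, 75 and 78, had 1.96%, 1.33% and 1.30%, while section 73 in front of them had 5.07%. The highest share of each of the 3 inner zones was 7.15% in section 18, 6.75% in section 31 and 6.51% in section 60.

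The rule limits how high a lead can be but not how low. The median lead of the foremost zone was -1.23 for the interior genes and 0.02 for the 8074 genes without an anterior-posterior zone, all of which obey the same limit. A foremost lead of -1 or lower was found in 119 of the 200 (59.5%), against 657 of the 8074 (8.14%). For the tail zone 66 to 78 the medians were -0.94 and -0.60, and 96 members (48.0%) had a lead of -1 or lower, against 27.3%. Over all 13598 genes tested along this axis, the tail median was -0.79 and 40.2% were that low. The tail values of the members were thus near those of all genes, but lower than those of the 8074 genes under the same limit. In the foremost zone all genes had a median of 0.32, with 9.05% that low. Both ends were that low in 51 members, against 230 of the 8074 (2.85%).

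Genes picked the same way for the back or the belly did not show the foremost deficit. The median foremost lead was -0.04 for the 200 dorsal genes and -0.03 for the 200 ventral genes chosen by the same rule for zones 4 to 9 and 19 to 26. In the tail zone the medians were -0.54 for the dorsal and 0.14 for the ventral genes. The 3 lists were not matched in abundance, and the part of abundance in these differences was not tested. The foremost sections had a median total of 1001557 counts, above the median of the tail sections, 280209. With each section thinned to 175749 counts, the median over members of the level centred per gene was -1.19 in the foremost and -0.81 in the tail sections, against 0.25 and -0.66 over all genes.

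**Figure D3:**
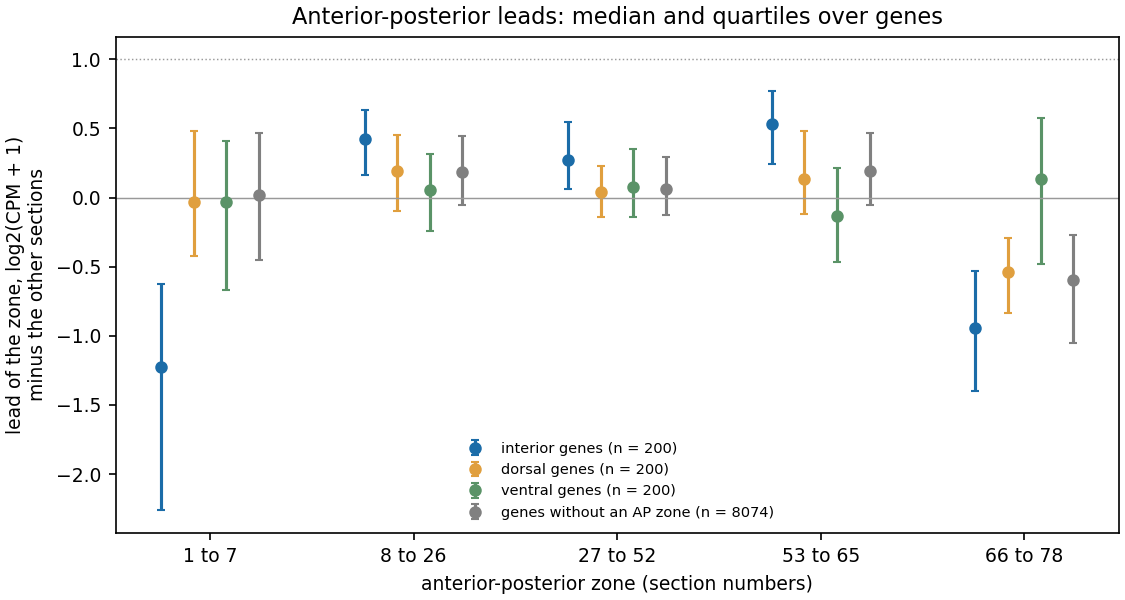
Median (points) and quartiles (bars) over genes of the lead of each anterior-posterior zone, on the log2(CPM + 1) scale, for the interior, dorsal and ventral genes (n = 200 each) and for all genes without an anterior-posterior zone (n = 8074). The interior genes stand lowest in the foremost zone, at -1.23, and the dotted line at 1 marks the limit that the rule set.

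Between the ends, the zone with the largest lead was 53 to 65 in 92 members, 8 to 26 in 60, 27 to 52 in 38, 1 to 7 in 7 and 66 to 78 in 3. The median leads of the 3 inner zones, from front to back, were 0.42, 0.27 and 0.53, against 0.19, 0.06 and 0.20 for genes without an anterior-posterior zone. Within the middle zone, the shares of sections 34 to 41 were 3.57%, 3.48%, 3.34%, 3.16%, 3.43%, 3.00%, 1.30% and 2.63%. A window noticed after its values were seen, sections 35 to 41 against sections 28 to 33 and 42 to 50, was lower than the lower of its flanks in 187 members (93.5%), but also in 74.1% of all genes. With thinned counts these shares were 82.0% and 57.3%, and the sections of this window had between 292379 and 825916 counts, fewer than most of their flanks.

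The 3 members with the lowest foremost leads were abundant elsewhere. DjGI000212_002 had 157, 9.21, 41.9, 18.2 and 121 CPM in the foremost sections, against medians of 3048, 2012, 3355 and 2480 CPM in the zones from 8 to 26 back to 66 to 78, and the lowest of all values behind section 7 was 176 CPM. DjGI014985_001 had 55.4, 64.5, 0.998, 9.12 and 22.8 CPM in front, against zone medians of 460, 365, 485 and 416 CPM. DjGI019365_001 had 4.61, 0, 3.99, 6.27 and 7.03 CPM in front, against zone medians of 126, 120, 168 and 75.5 CPM. In the first the foremost sections did not overlap with any other section, and in the others they overlapped with a few low sections. Their foremost leads were -5.58, -4.32 and -4.29.

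Low levels in front were also found among the genes named for other reasons. DjGI014348_001 had 0 counts in all 5 foremost sections, and DjGI008499_001 had counts in 1 of them. DjGI015972_001 had 60.0, 84.8, 347, 303 and 269 CPM in front, against zone medians of 3116, 3263, 3293 and 1694 CPM. DjGI007542_001, the most abundant member along the right-left axis, had 605, 943, 1094, 1582 and 1444 CPM in front, against zone medians of 4743, 3225, 4538 and 2345 CPM. Its foremost and other sections overlapped. The member with the highest mean along the anterior-posterior axis, DjGI017579_001, named after its values were seen, was not low throughout the foremost zone. It had 388, 1251, 3733, 5228 and 3624 CPM there, against zone medians of 3337, 2939, 4862 and 3020 CPM, and its foremost lead was -0.49. Without DjGI017579_001, the median share was 0.934% in the foremost sections and 4.57%, 3.56%, 5.16% and 3.06% in the zones behind them.

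The lowest tail lead, -2.93, belonged to DjGI002309_002, which had a tail median of 0 CPM and a highest tail value of 3.57 CPM, with 5 counts in all in 4 of 11 sections. DjGI002309_002 was not low in front, where it had 0, 62.7, 49.9, 1.14 and 51.6 CPM. DjGI011635_001 had counts in 2 of 11 tail sections and in 1 of 5 foremost sections, against medians of 22.8, 18.9 and 21.2 CPM in the zones between. DjGI010728_001 had counts in 1 tail section, against medians of 11.7, 16.0 and 19.2 CPM in the zones between, and 0, 1.84, 2.00, 7.98 and 8.20 CPM in front. At tail totals of 175749 to 893718 counts, a gene near 1 CPM gives less than 1 count in a section, so such levels were not detectable there.

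The right-left series was not used to choose the genes, and there the question was whether genes of the dorsal-ventral core also lay inward from the body margins. Most did, and the summed share was highest in sections 19 and 21 to 24 and lowest at the left margin. In the 8 used sections of the right part, sections 6, 8, 10, 12, 13, 14, 15 and 16, the share was 0.608%, 1.32%, 1.52%, 3.10%, 4.10%, 4.13%, 4.14% and 1.76%. In the 15 used sections of the middle part, 18 to 34, it had a lowest value of 2.15%, a median of 4.66% and a highest value of 6.75% in section 23. In the 14 sections of the left part, 35 to 48, it fell from 4.33% to 0.587%, with a lowest value of 0.434% and a median of 1.59%. The drop from about the middle level to the margin level came within sections 38 to 44 on the left, at 3.97%, 2.79%, 2.34%, 1.82%, 1.37%, 1.09% and 0.612%. Section 16 had the highest total of the series, 13052596 counts, and a share below that of its neighbours.

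A smooth curve over section number (a natural spline with 4 degrees of freedom) was tested for 16463 genes with edgeR's quasi-likelihood test, with calls at a Benjamini-Hochberg adjusted p under 0.05. By this test 137 of the 200 interior genes varied along the right-left axis. The background was 9.17% of all genes tested. Of the dorsal genes chosen by the same rule 8 of 199 tested were called, and of the ventral genes 15 of 182. Among the 137 called interior genes, 136 had a higher mean level in sections 13 to 40 than outside them. That window was fixed after the values were seen, and 76.3% of all genes were higher inside it. The called share rose with abundance, from 18 of the 34 members under 5 CPM to 42 of the 43 members over 100 CPM. With the log2 of the section total as a further term, 117 members were called, against 2224 of all 16463 genes tested. With counts thinned to 236421 per section, 897 of 7387 genes were called, and 100 of the 148 members that still passed the filter. Only 55 dorsal and 59 ventral genes still passed it, of which 5 and 3 were called. The lists thus differed in abundance, and its part in these counts was not tested.

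The smallest adjusted p of the spline among the members, 1.89e-12 by edgeR, was that of DjGI015834_001. Its values in the right part ran from 140 CPM over a median of 501 CPM to 952 CPM, in the middle from 446 CPM over 970 CPM to 1867 CPM, and in the left part from 79.7 CPM over 270 CPM to 754 CPM. DjGI007542_001 had 1506, 3319 and 6644 CPM on the right, 3270, 6272 and 10913 CPM in the middle, and 811, 2779 and 9097 CPM on the left as lowest, median and highest values, with an edgeR adjusted p of 6.28e-12. DjGI019207_001 had medians of 2013, 3261 and 1341 CPM from right to left, highest at section 19, with an edgeR adjusted p of 2.18e-11. DjGI015972_001 had medians of 848, 2176 and 584 CPM, highest at section 23, with an edgeR adjusted p of 4.22e-11. The parts overlapped in each of these genes, because the sections next to the middle were also high.

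DjGI000584_001 had a different outline, with an edgeR adjusted p of 1.25e-06 and separate highs at sections 13 (3871 CPM), 21 (5669 CPM), 29 to 31 (3693 to 4268 CPM) and 37 (4342 CPM). Between these it had 656 CPM in section 18, 507 CPM in section 27 and 874 CPM in section 34. The section totals moved with these values, with 2386911 counts in section 13, 7381130 in section 21, 3685410 to 7105233 in sections 29 to 31 and 5573986 in section 37, against 2146954, 1102511 and 1141316 in sections 18, 27 and 34. The outline was noticed in the plotted values, and neither it nor the part of depth in it was tested.

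**Figure D4:**
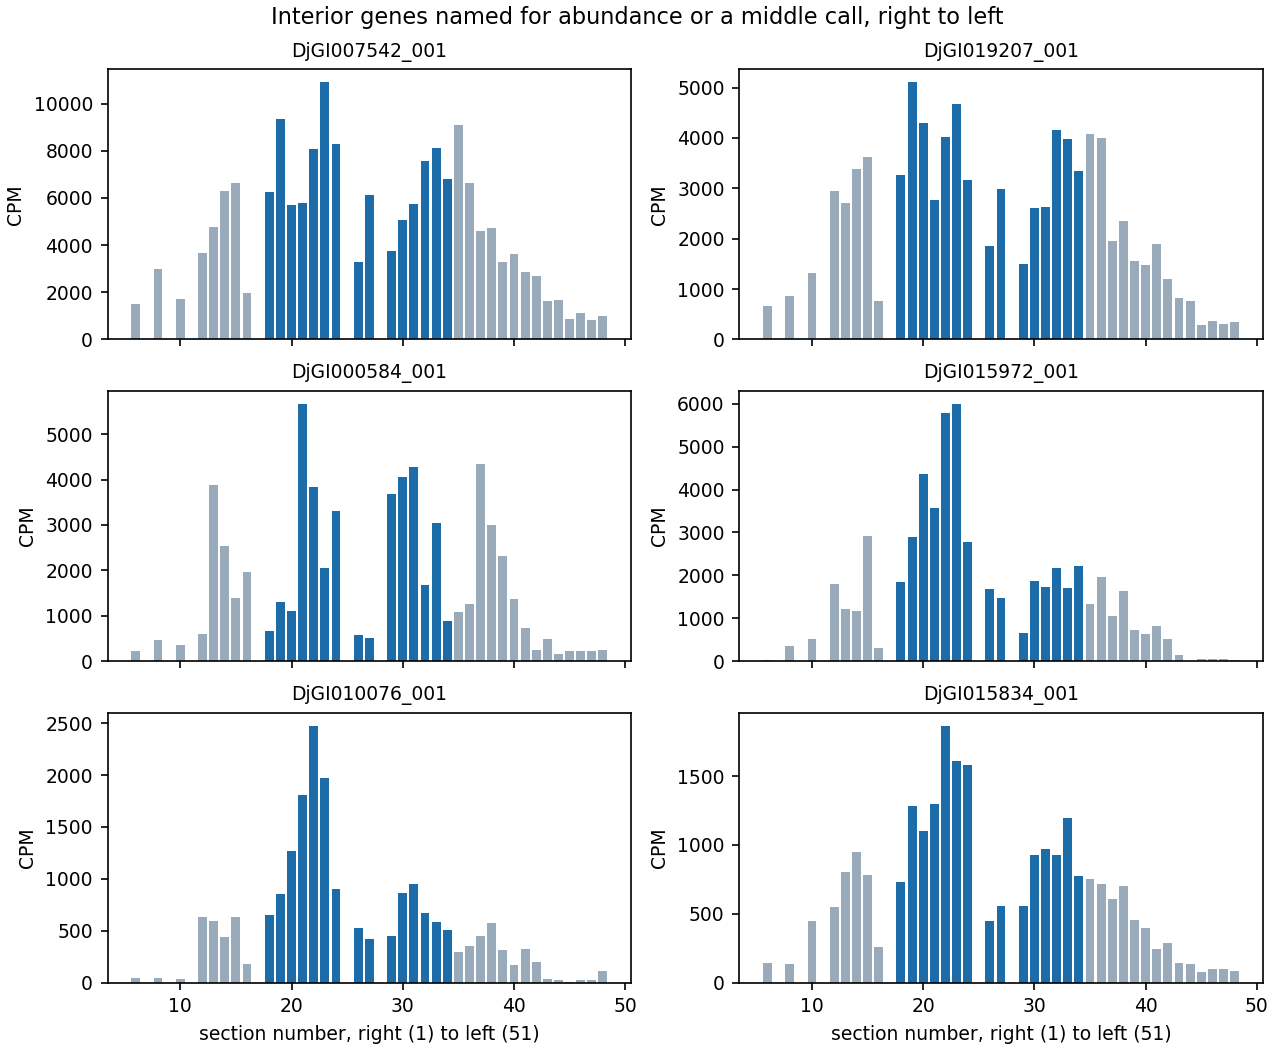
CPM in each used right-left section of the 4 most abundant interior genes and of the genes called higher in the middle part, with sections 18 to 34 in blue and the other sections in grey. The levels are low at both margins and, except in DjGI000584_001, in section 16, and DjGI010076_001 reaches 2477 CPM in section 22.

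Of the genes with the largest interior leads, DjGI014348_001 and DjGI019365_001 were detected in all 15 middle sections, at medians of 29.1 and 80.4 CPM, and in 8 and 12 of 14 left sections, at medians of 2.55 and 14.5 CPM, with edgeR adjusted p values of 4.35e-08 and 3.19e-07 for the spline. DjGI003135_001 and DjGI014985_001 were called too, with edgeR adjusted p values of 3.69e-06 and 4.12e-10. DjGI008499_001 had an edgeR adjusted p of 6.95e-05, though its highest section was 15, in the right part. For DjGI015745_001 the edgeR adjusted p was 0.00323, and with the depth term it was 0.0904. The gene with the deepest foremost deficit, DjGI000212_002, had medians of 1048, 1835 and 1101 CPM from right to left, with values as low as 6.54 CPM in the left part, and an edgeR adjusted p of 1.25e-10.

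Of the members named for the tail or the flanks, 3 were called by the spline and 6 were not. DjGI010076_001, with its dorsal excess, had an edgeR adjusted p of 3.86e-09. DjGI002653_001 had medians of 2.45, 14.4 and 3.61 CPM from right to left and an edgeR adjusted p of 2.85e-06, and DjGI011635_001 had medians of 5.85, 11.9 and 2.79 CPM and an edgeR adjusted p of 0.00860. By contrast, the edgeR adjusted p was 0.630 for DjGI002309_002, 0.423 for DjGI010728_001, 0.532 for DjGI002588_001, 0.116 for DjGI007533_001, 0.839 for DjGI010804_001 and 0.196 for DjGI011169_001. With all 51 sections, 3 of these 6 were called, but so were 5530 of all 15505 genes tested. In that setting DjGI002653_001 was not called, at an edgeR adjusted p of 0.121.

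One member, DjGI008876_001, singled out after its values were seen, was the only called gene with a higher level outside sections 13 to 40. Its mean was 20.8 CPM on the right, 11.4 CPM in the middle and 51.0 CPM on the left, with its highest section at 45 and an edgeR adjusted p of 0.0378 for the spline. In its dorsal-ventral values it was an interior gene like the others, with a lead of 2.21.

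Against the mean of the right and left parts, 2 interior genes were called higher in the middle part, sections 18 to 34, and 0 higher at the sides, by edgeR with a background of 0.778% and 0.213% of the genes tested. DESeq2 called 7 and 0 of the 105 members to which it gave an adjusted p, against 114 and 94 of 5292 such genes. The edgeR count of 2 became 6, 5, 8 and 5 when section 15, 35, 36 or 38 was left out. DjGI010076_001 had a log2 fold change of 1.96 ± 0.43 (SE, 15 middle against 22 other sections, edgeR adjusted p = 0.0109). Its lowest, median and highest values were 38.1, 308 and 638 CPM on the right, 420, 859 and 2477 CPM in the middle, and 8.32, 186 and 580 CPM on the left. DjGI015834_001, with the values given above, had a log2 fold change of 1.38 ± 0.32 (SE, same sections, edgeR adjusted p = 0.0167). Both calls were lost with the depth term, at edgeR adjusted p = 0.0559 and 0.116, and with the sections of at least 50% of the median total, at 0.154 and 0.171.

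The parts are coarse for these genes, since the high stretch reached into the right and left parts. The fold change of the middle over the sides was positive in 195 of the 200, against 59.3% of all genes. Its median was 0.84 on the log2 scale against 0.12 over all genes. An unadjusted edgeR p under 0.05, in either direction, was found in 83 members and in 1685 of the 16463 genes tested. With DESeq2's size factors the medians were 0.73 and -0.04, and the all-gene calls changed from 128 higher and 35 lower to 90 higher and 58 lower. When the axis was divided into 5 equal parts and the central part set against the outermost parts, 145 members were called higher in the centre, with a background of 8.69% and a shift of all genes of 1.31 on the log2 scale. The outermost right part then held 3 used sections, with 236421 to 328043 counts.

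A window fixed after the values were seen, sections 13 to 40 (25 used sections) against the 12 used sections outside it, described the same shape without a test. The mean log2(CPM + 1) was higher inside in 199 of the 200 members, with a median difference of 2.18, against 76.3% of all genes and a median of 0.38. A difference of at least 1 was found in 180 members (90%) and in 17.7% of all genes. With thinned counts the medians were 1.97 and 0.22. For the dorsal genes the median was 0.48 and for the ventral genes -0.05.

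Right against left, 0 interior genes were called in either direction by edgeR, with a background of 0.0425% higher on the right and 0% higher on the left. An unadjusted edgeR p under 0.05 was found in 7 members and in 1325 of the 16463 genes tested. DESeq2 called 0 of the 176 members to which it gave an adjusted p, against 15 of 9441 such genes. The median log2 fold change was 0.24, against -0.13 over all genes. It turned negative with all 51 sections, at -0.16 against -0.30 over all genes, and with 5 equal parts, at -0.25 against -1.36. In each of these settings the members' median was above that of all genes. Between the outermost of 5 equal parts, where the right one held 3 used sections, edgeR called 12 members higher on the right and 3 higher on the left. Over all 16463 genes tested, it called 220 higher on the right and 533 higher on the left.

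Within the middle part, the sections nearest the midline by number were lower than their neighbours. Sections 26, 27 and 29 had shares of 2.15%, 2.81% and 3.33%, below 5.83%, 6.55%, 6.75% and 5.48% in sections 21 to 24 and 4.57%, 4.66%, 4.64% and 4.92% in sections 30 to 33. Of the members, 187 (93.5%) had a lower mean level in sections 26 to 29 than in the lower of those flanks, against 67.8% of all genes. With thinned counts these were 86.0% and 48.5%. Section 26 had 347444 counts, the lowest of the used middle sections, and section 29 had 3685410. The window was noticed after its values were seen, and it was not tested.

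The highest section of a member lay between 18 and 25 in 88 cases, between 26 and 29 in 10, between 30 and 34 in 17, in the right part in 31 and in the left part in 54. Most members followed the shape of the whole list. The correlation of a member's log2(CPM + 1) over the 37 right-left sections with the median of the other members, centred per gene, had a median of 0.75, and it was over 0.5 in 170 members. With thinned counts the median was 0.65, with 146 members over 0.5. Over the 74 anterior-posterior sections the median was 0.56, with 135 members over 0.5. After thinning these were 0.48 and 94. The points share their section's library and depth, and no such correlation is given for all genes, so there is no background for these values. The lowest value in the right-left series, -0.16, was that of DjGI008876_001.

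**Figure D5:**
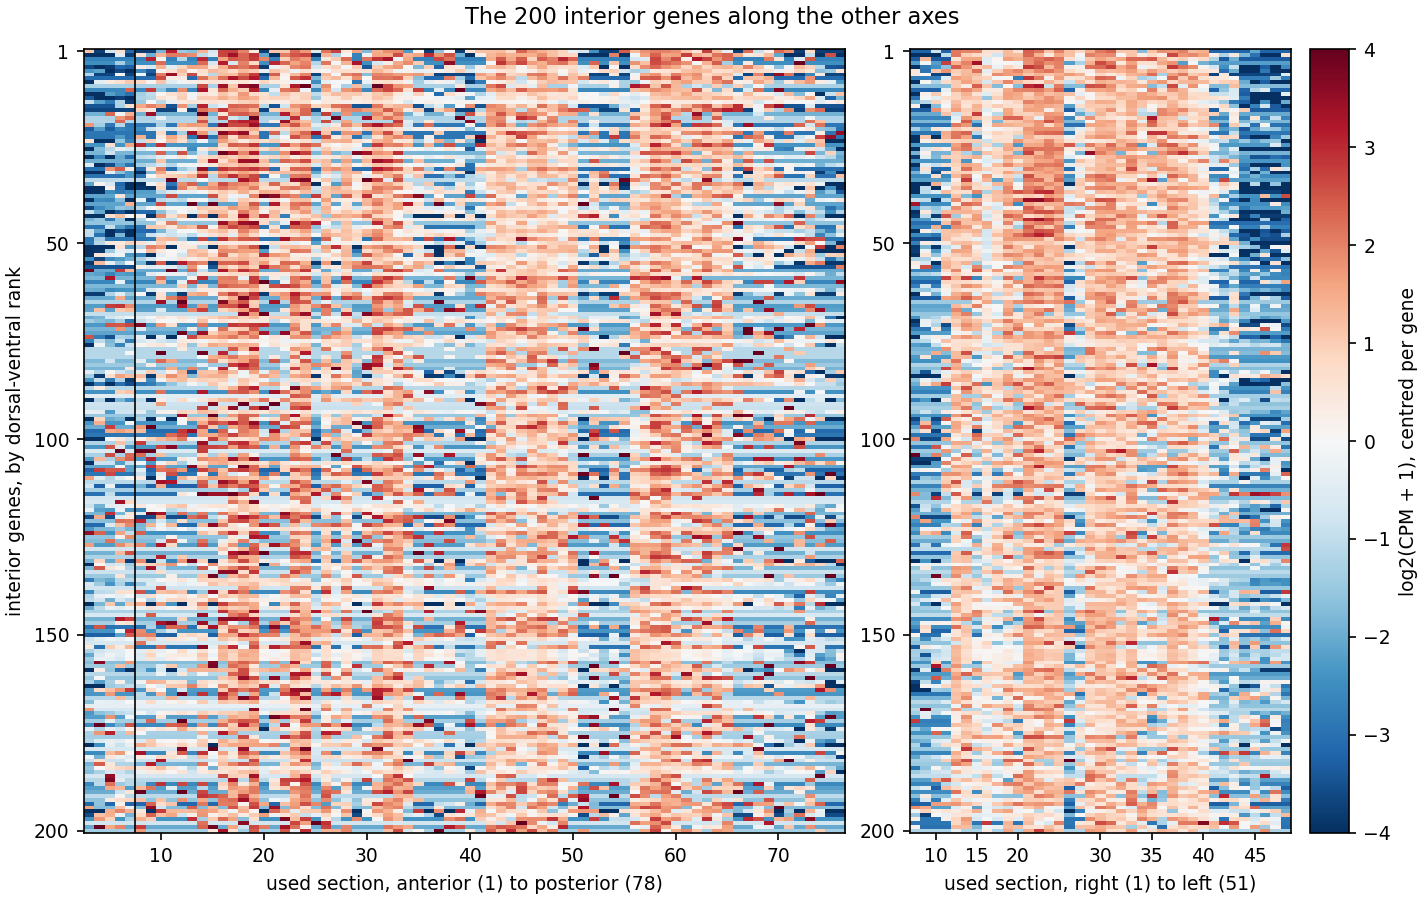
log2(CPM + 1), centred per gene over the sections shown, of the 200 interior genes (rows, by interior lead) in the used anterior-posterior and right-left sections (columns), with the foremost sections left of the vertical line in no order. Most rows are below their mean in the foremost columns and at both margins of the right-left axis, and above it in right-left sections 21 to 24 and 30 to 38.

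Abundance was concentrated in a few genes. In the right-left series the 10 most abundant members gave 53.3% of the members' counts, the most abundant, DjGI007542_001, giving 13.5%. Without DjGI007542_001, the median share was 5.38% in the interior sections and 0.734% in the ventral ones. The median of the members' mean right-left level was 13.8 CPM, against 5.72 CPM over all genes tested, with 43 members over 100 CPM and 34 under 5 CPM.

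Of the 200 identifiers, 26 shared their first part with another member, in 9 first parts, which leaves 183 distinct first parts. DjGI000231 alone held 8 members of its 9 rows, with mean right-left levels of 93.1 to 102 CPM, interior leads of 1.99 to 2.09 and pairwise correlations of 0.914 to 0.980 over the right-left sections. Both rows of DjGI001526 were members, at 928 and 931 CPM with a correlation of 0.996, and so were 2 of the 6 rows of DjGI000311, at 372 and 404 CPM with a correlation of 0.987. The values of such rows were not identical, but reads could have been split between near-identical rows, so their levels are uncertain and they are not separate evidence. The pair of DjGI002333, at 4.32 and 4.46 CPM, had a correlation of 0.343. The smaller groups were DjGI000039 with 3 of 8 rows, DjGI000290 with 3 of 5, DjGI001017 with 2 of 3, and DjGI002147 and DjGI002701 with 2 of 2 each, at mean levels of 3.04 to 23.0 CPM.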

How the data were processed

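Each of 157 sections gave 1 RNA-seq library, prepared with Direct-TRI and version 1.1 of Lasy-Seq per the labels' protocols. The authors deposited 3 tables of estimated counts, 1 per axis. The submitters' processing notes name Salmon, BWA 0.7.17-r1188, fastp 0.21.0 and bcl2fastq 2.20.0. The role of each tool, the Salmon version and the reference were not given in the sources used here. Of the estimated counts the authors deposited, 1028 (0.0256%) had decimals, and all were rounded before tests. The names of 7 columns match anterior-posterior sections 1 to 7 by their suffix and, with punctuation ignored, also another section. These columns were used for the foremost zone, never in order. No other column of per-section values was left aside.

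The members, zones, windows and lists were chosen with earlier results of these data known. The rule and its thresholds stand in the report. CPM used column totals and a pseudocount of 1 on the log2 scale. Only the right-left series was tested, with edgeR 4.0.16 (R 4.3.3), TMM factors, the quasi-likelihood F-test, genes with 5 or more counts in 10% of used sections, and Benjamini-Hochberg adjustment over all genes at 0.05. Right was sections 1 to 17, middle 18 to 34 and left 35 to 51. Standard errors come from the F statistic. The fit was run on simulated data, with independent sections and changes only among more abundant genes. Its error rates in the real sections were not measured. DESeq2 1.42.0 and the other settings of the closing section were alternatives, and thinned counts are 1 seeded draw per section to the lowest used total. Without replicate animals, precision comes from the number of sections, and Wilson intervals (95%) cover counting error only, as reads without molecular identifiers are not independent molecules. Shares of up to a few percent of 175749 or more counts have narrow intervals.

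Named genes were the 6 with the largest interior lead, the 4 most abundant along right-left, up to 4 called members per contrast and direction averaging 5 CPM or more in the higher part, the 3 lowest leads in each end zone, the 3 largest flank differences in each direction, and members that share a first part. Marker lists for gut, neoblasts, muscle, nervous system, epidermis, excretory cells, pharynx and secretory cells could not be matched, as identifiers are not paired with names. No reference came with the tables, so no sequence is printed.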

Additional observations from a re-analysis of the deposited data

Results flagged for a closer look

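Among the named genes, 110 groups of 4 to 10 sections were searched for a section far from the others of its zone, and 13 were found. The limit is Dixon's 95% value, which chance passes in about 1 in 20 groups of normally distributed values, and that rate was not measured for these groups, several of which hold zeros. Values are log2(CPM + 1). In the foremost zone, 1 section stood above the rest at 4.02 for DjGI015745_001, 1.12 for DjGI008499_001, 5.44 for DjGI011635_001, 1.97 for DjGI007533_001 and 1.10 for DjGI010804_001, and 1 stood below at 0 for DjGI019365_001. In the interior zone, 1 section stood below the rest at 5.72 for DjGI015745_001, 2.39 for DjGI014348_001, 2.94 for DjGI010728_001 and 3.05 for DjGI007533_001. In the dorsal zone DjGI010804_001 had a single high section at 2.07. In the ventral zone DjGI014348_001 had a single high section at 2.36, and DjGI011169_001 a single section at 0.

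The sections left out for a low total also held counts of the interior genes. Their summed share reached 1.36% in 4 anterior-posterior sections, 1.81% in 7 dorsal-ventral sections and 3.42% in 14 right-left sections, the last in section 17.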

How the results depend on the processing

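The number of members called by the right-left spline kept within 1.5 times of 137 under the 7 alternatives run. It was 128 with DESeq2's size factors in edgeR and 146 of 195 with an adjusted p by DESeq2. Without the filter it was 141, and with all sections 174. It was 105 with sections of at least 50% of the median total, 117 with the depth term and 100 of 148 tested after thinning. Leaving out each section in turn gave 126 to 141. Over all genes the spline called 1510 of 16463, but 3649 of 20067 without the filter and 5530 of 15505 with all sections. It called 884 of 16993 with the 50% limit, 897 of 7387 after thinning and 2224 of 16463 with the depth term. With DESeq2's size factors it called 1373 of 16463, and DESeq2 called 1840 of 11356 genes with an adjusted p. The share of all genes called thus also moved with the setting.

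The number called higher in the middle, 2, depended on the setting: 7 with DESeq2, 6 without the filter, 23 with all 51 sections, 0 with the 50% limit, 0 with the depth term and 145 with 5 equal parts. Leaving out 1 section gave 2 to 8, namely 8 without section 36, 6 without section 15 and 5 without section 35 or 38. The cause was not tested. Over all genes, 163 differed between middle and sides, but 363 without the filter, 249 with all sections, 63 with the 50% limit, 100 after thinning and 1513 with 5 equal parts. Right against left, 7 did, but 15 with DESeq2, 17 without the filter, 47 with all sections, 21 with the depth term, 3 after thinning and 753 with 5 equal parts. The counts higher at the sides, on the right and on the left, 0 each, ranged from 0 to 0 when 1 section was left out. With 5 equal parts, 12 members were higher on the right and 3 on the left, against 220 and 533 of all 16463 genes. The median right against left was 0.24 and became -0.16 with all sections and -0.25 with 5 equal parts, where all genes had -0.30 and -1.36. The median of the middle over the sides became 3.11 with 5 equal parts, where all genes had 1.31.

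The lead limits of the rule were met again by 160 of the 200 with thinned counts, 162 with TMM totals, 169 with a pseudocount of 5, 177 with the 50% limit, 198 without sections 1 to 7, and 126 when 5 counts were asked in 50% of sections, where 188 had a value. Of a new list of the top 200, 141, 162, 103, 127, 131 and 126 members were in common, in the same order of settings. Leaving out each dorsal-ventral section in turn, 200 to 200 met the limits again and 185 to 198 stood in the new list. The first count was close to fixed, as the lowest lead was 1.88 against a limit of 1, and anterior-posterior leads were unchanged. No paired analysis was possible because the sections of different parts share no replicate number. Depth limits what can be said of genes near 1 CPM in the shallow end sections.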
